A study of Mus musculus with 14 samples.

Results

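Syk, Lyn, Fgr, Btk, Plcg2, Vav1, Inpp5d, Ptpn6 and Ptprc encode kinases, effectors and phosphatases of leukocyte receptor signalling, and their transcripts were followed in mouse liver. They are 9 of the 51912 genes listed in each count table and were matched by symbol, and all 9 passed the filter on low counts. The set was chosen by measured levels in these same livers, because Syk and Inpp5d were among the steadiest rises in autoimmune hepatitis (AIH), so differences between AIH livers and the other livers are given for these genes as values, with standard errors and no test calls. The comparison of asymptomatic with control livers was not used to choose them and is tested.

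Total RNA from the left liver lobe was sequenced in 14 libraries, all from untreated mice aged 20 weeks that carried the floxed Tet2 allele (Tet2fl/fl). The AIH group (n = 5) and the asymptomatic group (n = 5) were Tet2fl/fl vav cre+, and the control group (n = 4) was their Tet2fl/fl cre- littermates without disease. The vav promoter drives Cre in blood-forming cells and their progeny. Gene counts totalled 15.97 to 18.92 M per library (M, mega). Every library held high levels of hepatocyte transcripts, with 5 markers including Alb and Apoa1 summing to 79986 to 158599 CPM (counts scaled per mega-count of the library) in AIH livers, 112945 to 140262 in asymptomatic livers and 110768 to 149401 in control livers. Tet2 itself averaged 10.5 ± 3.98, 6.82 ± 1.83 and 10.7 ± 1.54 CPM in AIH, asymptomatic and control livers (SD, n = 5, 5 and 4). These counts cover the whole gene and are no check of the deletion. Sex is not in the labels. Xist and Y-linked counts placed 4 females and 1 male in the AIH group, 5 males in the asymptomatic group, and 2 females and 2 males in the control group. Library numbers ran from 11 to 15 in AIH livers and from 1 to 10 in the others, so the order of those numbers and AIH cannot be told apart.

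Many leukocyte receptors carry an immunoreceptor tyrosine-based activation motif (ITAM) or signal through adaptors that carry one, and this motif is phosphorylated by Src family kinases such as Lyn and Fgr. The doubly phosphorylated motif binds Syk, which then acts, with the Tec family kinase Btk, on phospholipase C gamma 2 (Plcg2) and on the exchange factor Vav1. Inhibitory receptors that carry the related motif ITIM recruit the tyrosine phosphatase SHP-1 (Ptpn6) and the inositol phosphatase SHIP-1 (Inpp5d), and the surface phosphatase CD45 (Ptprc) sets the activity of Src kinases by removing their inhibitory phosphate. In liver many of these proteins are known from Kupffer cells, the resident macrophages, and from leukocytes that enter the organ. Bulk counts do not show which cells, hepatocytes included, held each transcript.

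The sequences at the starts of these genes are shown for Syk and Inpp5d, whose levels varied least among AIH livers, for Vav1 and Btk, and for Fgr, whose levels varied most. They are RefSeq windows on GRCm38.p6 of 300 bases, 250 before the start and 50 from it, written 5′ to 3′ on the gene's strand. Capitals mark GAGGAA, the core of the site of PU.1 (a transcription factor of myeloid and B cells), or TTCCTC, the same core on the other strand. It was the only motif searched, on both strands, and no match overlapped another. Only windows that hold the motif are shown, and those without it are named below.
Syk, second start (chr13:52596632-52596931, plus strand): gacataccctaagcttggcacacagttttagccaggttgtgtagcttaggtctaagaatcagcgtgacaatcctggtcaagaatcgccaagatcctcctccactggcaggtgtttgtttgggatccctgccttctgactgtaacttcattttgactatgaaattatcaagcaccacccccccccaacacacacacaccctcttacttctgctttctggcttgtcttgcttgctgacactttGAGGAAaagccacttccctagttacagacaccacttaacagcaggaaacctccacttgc
Inpp5d (chr1:87620062-87620361, plus strand): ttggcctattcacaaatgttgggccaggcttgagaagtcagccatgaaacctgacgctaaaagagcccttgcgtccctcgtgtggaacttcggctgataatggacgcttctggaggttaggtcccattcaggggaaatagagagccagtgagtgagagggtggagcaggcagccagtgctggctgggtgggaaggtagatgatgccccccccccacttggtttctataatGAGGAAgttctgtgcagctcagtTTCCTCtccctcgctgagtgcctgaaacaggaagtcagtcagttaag
Vav1 (chr17:57278850-57279149, plus strand): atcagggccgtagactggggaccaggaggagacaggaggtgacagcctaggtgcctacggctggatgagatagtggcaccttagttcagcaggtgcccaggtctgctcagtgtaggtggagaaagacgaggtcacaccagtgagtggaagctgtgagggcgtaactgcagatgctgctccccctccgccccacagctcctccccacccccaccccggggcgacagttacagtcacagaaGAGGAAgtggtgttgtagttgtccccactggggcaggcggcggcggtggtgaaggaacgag
Btk (chrX:134583091-134583390, minus strand): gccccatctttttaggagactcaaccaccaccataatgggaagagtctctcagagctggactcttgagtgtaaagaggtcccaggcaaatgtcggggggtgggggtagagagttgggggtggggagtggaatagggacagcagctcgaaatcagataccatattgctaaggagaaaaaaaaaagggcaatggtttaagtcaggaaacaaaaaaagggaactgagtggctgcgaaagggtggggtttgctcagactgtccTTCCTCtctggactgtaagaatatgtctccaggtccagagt
Fgr (chr4:132973845-132974144, plus strand): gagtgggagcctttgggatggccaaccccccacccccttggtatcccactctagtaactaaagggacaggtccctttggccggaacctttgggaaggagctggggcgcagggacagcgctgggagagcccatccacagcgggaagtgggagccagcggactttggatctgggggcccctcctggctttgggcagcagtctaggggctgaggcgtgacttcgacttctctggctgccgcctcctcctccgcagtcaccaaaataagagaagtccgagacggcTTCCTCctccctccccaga

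The core was found in 6 of the 10 windows available for 8 of the genes, that is for 6 of those 8 genes. It stood in 28.3% of all 32851 windows of this length and in 31.3% of the 27025 genes that have one. Counted from the start, with 1 as the first transcribed base, the match began at -9 in the second Syk window, at -11 in Vav1, at -20 and 4 in Inpp5d, at 10 in Btk and at 32 in Fgr. Ptprc had 1 match, at -158 in one of its windows. The first Syk window, the other Ptprc window and the windows of Plcg2 and Ptpn6 did not hold these letters. A match of 6 letters is a description of the sequence and not a bound site.

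On GRCm38 the genes lie on 7 chromosomes. Syk spans chr13:52583173-52648792 on the plus strand, and its second start lies inside the gene, downstream of the first. Lyn (chr4:3678115-3813122) and Fgr (chr4:132974095-133001910) share chromosome 4, and Inpp5d (chr1:87620312-87720507) and Ptprc (chr1:138062861-138175708, minus strand) share chromosome 1. Btk lies at chrX:134542336-134583570 on the minus strand. Plcg2 (chr8:117498291-117635142), Vav1 (chr17:57279100-57328031) and Ptpn6 (chr6:124720707-124738714, minus strand) stand alone. Counts are sums over the exons of a gene. Lyn shares 6.09% of its exon bases with Gm26857 and Ptpn6 shares 6.96% with Gm20531, both on the opposite strand, and without a stated strand setting the reads of such pairs cannot be told apart.

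Syk, the kinase that binds phosphorylated ITAMs, was the most uniform of the 9 genes in AIH livers. It stood at 72.2, 69.7, 63.5, 59.6 and 61.1 CPM in the 5 AIH livers, at 10.01, 13.7, 9.66, 6.66 and 8.58 CPM in the asymptomatic livers and at 7.83, 9.72, 13.2 and 8.32 CPM in the control livers. All 5 AIH livers lay far above the other 9, and the highest AIH value was 1.21 times the lowest. The means were 65.2 ± 5.49, 9.72 ± 2.58 and 9.77 ± 2.41 CPM in AIH, asymptomatic and control livers (SD, n = 5, 5 and 4). The lowest AIH liver held 4.52 times as much as the highest control liver, the widest such gap of the 9 genes. The fitted log2 fold change was 2.74 ± 0.21 (SE) for AIH against control and 2.74 ± 0.19 for AIH against asymptomatic livers, which share the AIH libraries. In bulk tissue, more cells of a type and more RNA per cell cannot be told apart, here and for the other genes.

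**Figure D1:**
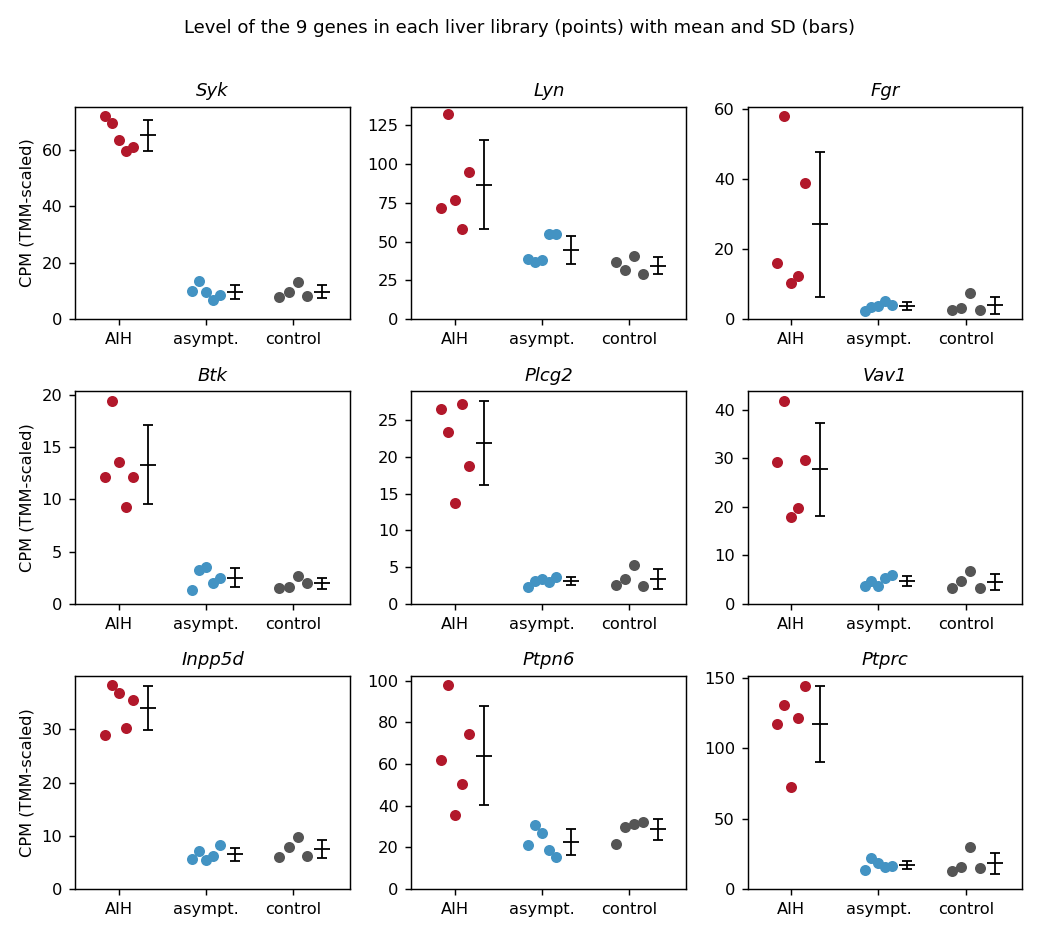
Level of each of the 9 genes in CPM (y axis, starting at 0 and scaled per gene) in AIH, asymptomatic (asympt.) and control livers; each point is 1 library and the bars beside the points give the mean and SD (n = 5, 5 and 4). The 5 AIH points lie above all asymptomatic and control points for each gene, by a wide margin for Syk and a narrow one for Lyn and Ptpn6.

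The Src family kinases Lyn and Fgr, which phosphorylate ITAMs and ITIMs, were less uniform. Lyn stood at 71.8, 132, 76.8, 58.1 and 95.2 CPM in AIH livers, at 38.7, 37.2, 37.9, 54.7 and 54.9 CPM in asymptomatic livers and at 36.7, 31.5, 41.0 and 29.3 CPM in control livers. Lyn had the highest level of the kinases in livers without AIH, and its lowest AIH liver was only 1.06 times the highest asymptomatic liver. Its means were 86.8 ± 28.6, 44.7 ± 9.25 and 34.6 ± 5.24 CPM in AIH, asymptomatic and control livers. The log2 fold change was 1.33 ± 0.23 for AIH against control and 0.96 ± 0.21 for AIH against asymptomatic livers. Fgr stood at 16.1, 57.9, 10.4, 12.2 and 38.7 CPM in AIH livers, at 2.41, 3.47, 3.64, 5.30 and 4.06 CPM in asymptomatic livers and at 2.57, 3.22, 7.35 and 2.51 CPM in control livers. AIH 2 and AIH 5 were high and the other 3 AIH livers lay between 10.4 and 16.1 CPM. The highest AIH value was 5.55 times the lowest, the widest spread of the 9 genes. The log2 fold change was 2.79 ± 0.53 for AIH against control and 2.84 ± 0.49 for AIH against asymptomatic livers, with the largest standard errors of the set.

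Btk, the Tec family kinase needed for B cell receptor signalling and also used by macrophages, had the lowest counts, with 20 reads in its lowest library. It ranged over 9.29 to 19.4 CPM in AIH livers, 1.30 to 3.51 CPM in asymptomatic livers and 1.52 to 2.72 CPM in control livers. AIH 2 was the highest AIH liver and AIH 4 the lowest. The log2 fold change was 2.75 ± 0.32 for AIH against control and 2.39 ± 0.29 for AIH against asymptomatic livers.

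Plcg2, the phospholipase that makes the second messengers IP3 and diacylglycerol, stood at 26.6, 23.4, 13.7, 27.2 and 18.7 CPM in AIH livers. The asymptomatic livers lay at 2.34 to 3.66 CPM and the control livers at 2.40 to 5.34 CPM. AIH 3 was low and the highest AIH value was 1.99 times the lowest. Its log2 fold change was 2.67 ± 0.28 for AIH against control and 2.80 ± 0.26 for AIH against asymptomatic livers. Vav1, which activates Rac GTPases, stood at 29.3, 41.8, 18.0, 19.8 and 29.7 CPM in AIH livers, with AIH 2 highest and AIH 3 and AIH 4 lowest. It lay at 3.64 to 5.92 CPM in asymptomatic livers and at 3.30 to 6.81 CPM in control livers. Asymptomatic mice carry the vav cre transgene and controls do not, and Vav1 averaged 4.67 ± 1.02 and 4.56 ± 1.66 CPM in these groups (SD, n = 5 and 4). Its log2 fold change was 2.60 ± 0.30 for AIH against control and 2.57 ± 0.27 for AIH against asymptomatic livers.

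Inpp5d encodes SHIP-1, which removes the 5-phosphate from PIP3 and so opposes PI3-kinase signalling. It stood at 29.0, 38.3, 36.8, 30.3 and 35.5 CPM in AIH livers, at 5.66, 7.12, 5.40, 6.14 and 8.32 CPM in asymptomatic livers and at 6.02, 7.91, 9.75 and 6.26 CPM in control livers. The AIH livers stayed within 1.32 times of each other, next to Syk in uniformity, and all 5 lay above the other 9. Its means were 34.0 ± 4.11, 6.53 ± 1.198 and 7.49 ± 1.73 CPM in AIH, asymptomatic and control livers. The log2 fold change was 2.18 ± 0.19 for AIH against control and 2.38 ± 0.18 for AIH against asymptomatic livers.

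Ptpn6 encodes SHP-1, the tyrosine phosphatase recruited by ITIMs. It stood at 61.9, 98.0, 35.5, 50.2 and 74.5 CPM in AIH livers, at 21.1, 30.5, 26.7, 18.6 and 15.1 CPM in asymptomatic livers and at 21.4, 29.7, 31.1 and 32.1 CPM in control livers. Its lowest AIH liver, AIH 3, held 1.11 times the level of the highest control liver, the narrowest gap of the 9 genes towards controls. Its log2 fold change was 1.16 ± 0.27 for AIH against control, the smallest of the set, and 1.52 ± 0.26 for AIH against asymptomatic livers. Ptprc, the CD45 phosphatase present on nearly all nucleated blood cells, stood at 117, 131, 72.7, 121 and 144 CPM in AIH livers, at 13.8, 21.6, 18.6, 15.3 and 16.03 CPM in asymptomatic livers and at 12.9, 15.5, 29.5 and 14.6 CPM in control livers. AIH 3 was the lowest AIH liver and control 3 the highest control. Its log2 fold change was 2.69 ± 0.27 for AIH against control and 2.78 ± 0.25 for AIH against asymptomatic livers.

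The groups did not overlap for any of the 9 genes in either comparison, which was so for 13.2% of all 14638 genes tested (higher in AIH than in control livers) and 12.3% (higher in AIH than in asymptomatic livers). The genes were chosen with these contrasts in view, so nothing is read from these counts. The median log2 fold change of the 9 genes was 2.67 for AIH against control and 2.57 for AIH against asymptomatic livers, beside -0.01 and -0.03 over all genes tested.

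AIH and sex overlap in part, so the fit was repeated within each sex. In males (1 AIH liver against 2 controls, with the spread of the single AIH liver taken from the other groups) Syk had a log2 fold change of 2.87 ± 0.37 (SE) and Inpp5d of 2.28 ± 0.32. In females (4 AIH against 2 control livers, a comparison added after the data were seen) these were 2.52 ± 0.25 for Syk and 1.96 ± 0.24 for Inpp5d. All 9 genes had a positive value in each sex, and the male values rest on 1 AIH liver. The genes were chosen with rises in these same livers in view, so the sign is no independent check. The smallest values in males were 0.80 ± 0.33 for Lyn and 0.89 ± 0.41 for Ptpn6, and Ptpn6 was at 1.13 ± 0.39 in females. Fgr had the largest standard error in females (2.52 ± 0.76). With sex as a term, AIH against asymptomatic livers gave 2.47 ± 0.22 for Syk, 1.81 ± 0.54 for Fgr and 0.64 ± 0.28 for Lyn. No asymptomatic liver was female, so that comparison has a within-sex value in males only, where the log2 fold change was 2.61 ± 0.29 for Syk, 2.20 ± 0.26 for Inpp5d and 0.37 ± 0.29 for Lyn.

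**Figure D2:**
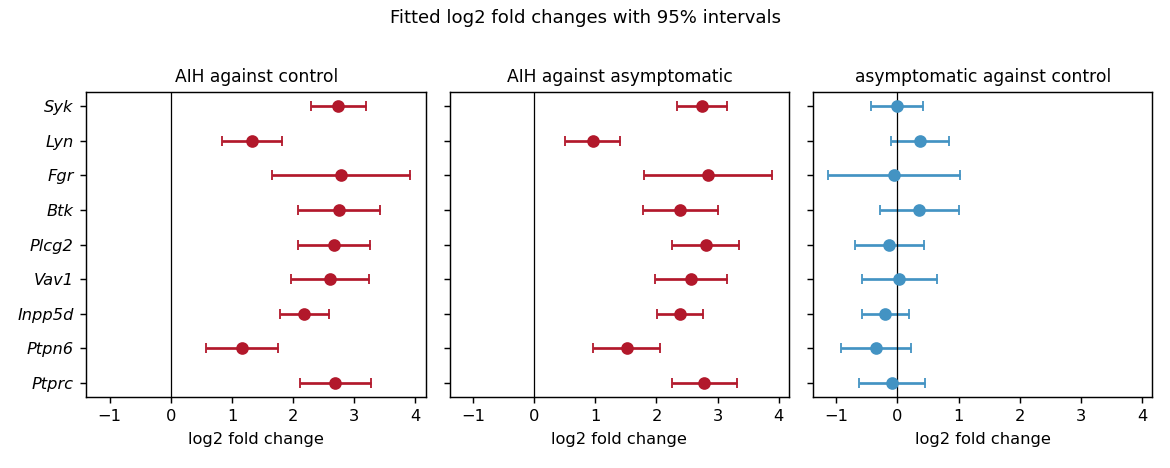
Fitted log2 fold change of each gene (x axis) with its 95% interval for AIH against control, AIH against asymptomatic and asymptomatic against control livers (panels, left to right; 1 fit of 14 libraries). The intervals lie above 0 in both AIH panels, where the genes were chosen, and include 0 for all 9 genes in the asymptomatic panel.

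Asymptomatic livers carry the same genotype as AIH livers, and this comparison asks whether the genes differ from control levels in mice of that genotype without disease. Of the 9 genes, 0 were called by edgeR's quasi-likelihood test with Benjamini-Hochberg adjustment over 14638 genes and a threshold of 0.05, where 0% of all genes were called, and 0 had an unadjusted p under 0.05 (10.5% of all genes did). DESeq2 called 0 of the 9 and 0.746% of all genes, and limma-voom with quality weights called 0 of the 9 and 8.87% of all genes. Unaligned reads made up 4.93% to 9.27% of asymptomatic and 4.17% to 4.89% of control libraries, and their part was not tested. Syk averaged 9.72 ± 2.58 CPM in asymptomatic and 9.77 ± 2.41 CPM in control livers, with a log2 fold change of -0.01 and a 95% interval of -0.43 to 0.42 (edgeR adjusted p = 0.993). Inpp5d averaged 6.53 ± 1.198 CPM in asymptomatic and 7.49 ± 1.73 CPM in control livers, with a log2 fold change of -0.20 and an interval of -0.58 to 0.19 (edgeR adjusted p = 0.714). Both intervals are from the fit without sex, and all asymptomatic livers were male. With sex as a term the log2 fold changes were 0.18 ± 0.22 (SE) for Syk and 0.01 ± 0.19 for Inpp5d. In males they were 0.26 for Syk and 0.08 for Inpp5d.

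The Src kinases Lyn and Fgr had intervals of -0.11 to 0.84 around 0.37 and of -1.13 to 1.02 around -0.05 for asymptomatic against control livers. Lyn had the largest positive value of the set, with 44.7 ± 9.25 CPM in asymptomatic and 34.6 ± 5.24 CPM in control livers (edgeR adjusted p = 0.581). Asymptomatic 4 and asymptomatic 5 were its high livers, and the groups overlapped. Ptpn6 had the largest negative value, -0.35 with an interval of -0.92 to 0.22 (edgeR adjusted p = 0.654), at 22.4 ± 6.20 CPM in asymptomatic and 28.6 ± 4.88 CPM in control livers. The remaining values were 0.36 for Btk, -0.13 for Plcg2, 0.03 for Vav1 and -0.09 for Ptprc. Their intervals ran over -0.29 to 1.01 for Btk, -0.69 to 0.43 for Plcg2, -0.58 to 0.64 for Vav1 and -0.62 to 0.45 for Ptprc. The interval of Fgr was the widest, and changes of Fgr within it were not detectable with these livers.

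Levels were compared between genes per kilobase of exon (reads per kilobase of exon and per mega-read, RPKM). The length is that of all annotated exons of a gene merged, 18.3 kb for Ptprc and 9.36 kb for Syk. It can exceed the length of any 1 transcript, which lowers the RPKM, so the order of the genes depends on this choice. In AIH livers the order was Ptpn6 (22.9 ± 8.51 RPKM), Lyn (21.3 ± 7.01), Vav1 (7.52 ± 2.59), Fgr (7.01 ± 5.34), Syk (6.97 ± 0.586), Ptprc (6.41 ± 1.48), Plcg2 (5.10 ± 1.32), Inpp5d (4.47 ± 0.541) and Btk (4.23 ± 1.19). Ptpn6 and Lyn do not differ beyond their spread, and neither do the neighbours from Vav1 down to Btk. In asymptomatic livers Lyn (10.97 ± 2.27 RPKM) and Ptpn6 (7.99 ± 2.21 RPKM) led, and the other 7 genes lay between 0.729 and 1.27 RPKM on average. In control livers Ptpn6 (10.2 ± 1.74 RPKM) and Lyn (8.5 ± 1.29 RPKM) led, and the other 7 lay between 0.627 and 1.24 RPKM. Ptpn6 and Lyn, the genes with the highest level per length in control livers, were those with the smallest fold changes in AIH.

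The 9 genes did not share one profile over the AIH livers. AIH 2 was the highest AIH liver for Lyn, Fgr, Btk, Vav1, Inpp5d and Ptpn6, AIH 1 for Syk, AIH 4 for Plcg2 and AIH 5 for Ptprc. AIH 3 was the lowest for Fgr, Plcg2, Vav1, Ptpn6 and Ptprc, AIH 4 for Syk, Lyn and Btk, and AIH 1 for Inpp5d. On the log2 scale the SD among AIH livers was 0.12 for Syk and 0.18 for Inpp5d, which ranked 17 and 67 from the lowest among the 2284 genes called higher in AIH than in control livers (median SD 0.56). The other SDs were 0.38 for Btk, 0.38 for Ptprc, 0.41 for Plcg2, 0.45 for Lyn, 0.49 for Vav1, 0.56 for Ptpn6 and 1.08 for Fgr. The uniformity of Syk and Inpp5d is what led to the choice of these genes and is given as a description. In livers without AIH the log2 SD of Syk was 0.37 in asymptomatic and 0.33 in control livers, beside 0.29 and 0.22 for Lyn.

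Transcripts that mark leukocytes moved with AIH as well. The 8 pan-leukocyte genes, among them Cd53, Laptm5 and Coro1a, were all called higher in AIH than in control livers (8 of 8, where 15.6% of all genes were, median log2 fold change 3.09), and their sum was 558, 941, 602, 489.5 and 481 CPM in AIH livers, 64.8 to 85.1 CPM in asymptomatic livers and 52.7 to 109.9 CPM in control livers. AIH 2 was the highest, as it was for 6 of the 9 genes. AIH 5 was the lowest for this sum, but it was the highest AIH liver for Ptprc and stood next to AIH 2 for Fgr, Lyn, Vav1 and Ptpn6. Markers of monocytes and macrophages (8 of 8 called higher) summed to 1364, 2693, 1630, 1266 and 1898 CPM in AIH livers. For these markers AIH 2 and AIH 5 were highest and AIH 4 lowest, as for the Kupffer cell markers below. The sums were 348 to 469 CPM in asymptomatic and 317 to 647 CPM in control livers. Kupffer cell markers (6 of 6 called higher) summed to 1468, 3398, 1194, 713 and 2522 CPM in AIH livers, with AIH 2 and AIH 5 highest and AIH 4 lowest, to 395 to 535 CPM in asymptomatic livers and to 306 to 655 CPM in control livers. AIH 2 and AIH 5 were also the highest AIH livers for Fgr, Lyn, Vav1, Ptpn6 and Ptprc. For Vav1 the margin was narrow, with 29.7 CPM in AIH 5 and 29.3 CPM in AIH 1.

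Markers of neutrophils and their precursors (9 of 9 tested called higher, of 10) summed to 366, 1331, 1379, 22.0 and 115 CPM in AIH livers, to 2 to 9.24 CPM in asymptomatic livers and to 1.99 to 4.07 CPM in control livers, where Ctsg and Ly6g were at 0. Syk stood at 59.6 CPM in AIH 4 and at 63.5 CPM in AIH 3, the livers with the lowest and the highest sum of these markers. T cell markers (6 of 6 called higher) ranged over 9.24 to 76.1 CPM in AIH, 1.55 to 5.59 CPM in asymptomatic and 1.58 to 4.90 CPM in control livers. B cell markers (6 of 6) ranged over 20.6 to 191, 1.94 to 18.9 and 2.75 to 7.15 CPM in AIH, asymptomatic and control livers, and AIH 4, the highest for them, was the highest AIH liver for Plcg2 and the lowest for Syk, Lyn and Btk. Platelet markers (4 of 4 tested called higher, of 5) summed to 45.9, 57.3, 58.0, 3.69 and 29.4 CPM in AIH livers, 2.45 to 4.46 CPM in asymptomatic livers and 2.46 to 3.38 CPM in control livers. Markers this low outside AIH could pass the filter on low counts through AIH livers alone. Nothing is read from the share called in such lists. Erythroid markers (4 of 5 called higher, median log2 fold change 2.31) summed to 510.4, 2489, 293, 213 and 1125 CPM in AIH livers. Their sums were 276 to 769 CPM in asymptomatic livers and 141 to 316 CPM in control livers. Among AIH livers AIH 2 and AIH 5 were highest, as for Fgr, Lyn, Vav1, Ptpn6 and Ptprc. NK cell markers were low (1 of 2 tested called higher, of 4), with sums of 1.52 to 3.94 CPM in AIH, 0.118 to 0.753 CPM in asymptomatic and 0.117 to 1.03 CPM in control livers, and 0 of the 4 mast cell and basophil markers passed the filter. Outside the blood cell lists, 3 of 5 stellate cell and matrix markers and 1 of 5 endothelial markers were called higher, 1 of 5 hepatocyte markers was called lower and 0 of 4 cholangiocyte markers were called in AIH against control livers. The part of these cells in the levels of the 9 genes was not tested.

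**Figure D3:**
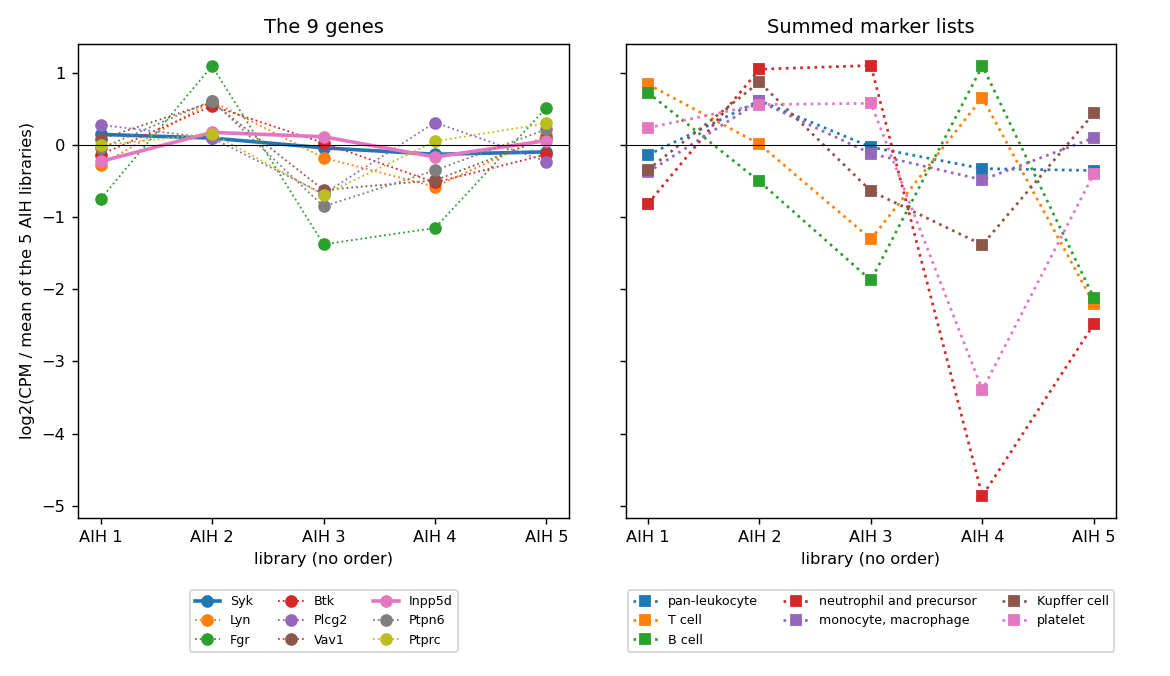
The 5 AIH livers (x axis, no order; lines only join the points of a gene or list) with the level of each of the 9 genes (left) and the summed level of 7 marker lists (right), each as log2 of the ratio to its own mean over the AIH livers. Syk and Inpp5d (thick lines) stay near 0 in every AIH liver, while Fgr and the neutrophil, platelet, B cell and T cell marker sums spread widely.

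Levels were also set against the leukocyte transcripts of the same liver. Each level was divided by the sum of the 8 pan-leukocyte genes and given per 100 CPM of that sum. Syk stood at 11.2 ± 2.29 in AIH, 12.6 ± 3.20 in asymptomatic and 13.5 ± 1.60 in control livers (SD, n = 5, 5 and 4), and the groups overlapped. Ptprc at 20.4 ± 7.49, 22.1 ± 2.55 and 24.3 ± 3.49, and Fgr at 4.27 ± 2.71, 4.92 ± 1.51 and 5.03 ± 1.124 in AIH, asymptomatic and control livers, overlapped as well. Lyn lay at 11.9 to 19.8 in AIH livers, below the 44.5 to 77.5 of asymptomatic livers and the 37.3 to 61.9 of control livers. Ptpn6 lay at 5.90 to 15.5 in AIH livers, at 18.2 to 37.0 in asymptomatic livers and at 28.3 to 60.8 in control livers. Inpp5d lay at 4.08 to 7.38 in AIH livers, 6.34 to 10.03 in asymptomatic livers and 8.87 to 11.9 in control livers, so that AIH and control livers did not overlap.

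The mean log2 ratio of AIH livers minus that of control livers was -1.97 for Ptpn6, -1.78 for Lyn and -0.86 for Inpp5d, and lay between -0.46 and -0.30 for the other 6 genes, values that rest on the contrast used to choose the genes. The pan-leukocyte genes had a median log2 fold change of 3.09 for AIH against control livers, and the 9 genes had 2.79 at most. Lower ratios in AIH livers therefore depend on this choice of denominator. A ratio within a library shows unequal change of numerator and denominator and not which of them moved. Between asymptomatic and control livers, 9 ratios were tested by exact two-sided permutation over libraries, with p-values adjusted over the 9. Plcg2 stood at 4.05 ± 0.327 in asymptomatic and 4.59 ± 0.188 in control livers, a mean log2 difference of -0.18 that was lower in 5 of 5 asymptomatic livers than in any control (exact permutation p = 0.0159, the smallest this design can give, adjusted p = 0.143). Inpp5d stood at 8.49 ± 1.33 and 10.4 ± 1.24 in asymptomatic and control livers, with a mean log2 difference of -0.30 (exact permutation p = 0.0317, adjusted p = 0.143). Neither passed after adjustment, and the other 7 had an unadjusted exact permutation p of 0.143 or more.

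**Figure D4:**
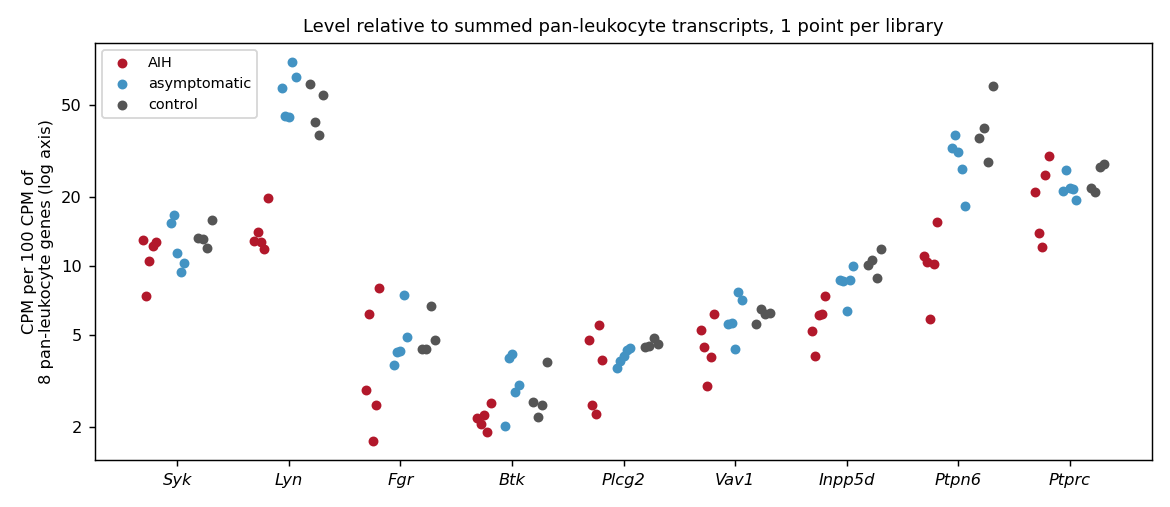
CPM of each gene per 100 CPM of the 8 summed pan-leukocyte genes (y axis, log scale), 1 point per library, for AIH, asymptomatic and control livers from left to right within a gene. AIH livers lie below control livers for Lyn, Ptpn6 and Inpp5d, and overlap them for the other 6 genes. The genes were chosen with this contrast in view, the share over all genes was not computed, and nothing is read from the split.

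The rest of the pathway was followed in 5 lists of 89 genes, of which 88 were tested. The lists were chosen with earlier results of these data known, so their counts and p-values for AIH livers are a description. The genes named from them were picked mainly by their p-value in AIH against control livers. List genes that are low outside AIH could pass the filter on low counts through AIH livers alone. Of these, 65 rose and 1 fell in AIH against control livers by edgeR's quasi-likelihood test (15.6% of all genes were called higher and 6.08% lower), with a median log2 fold change of 2.12 beside -0.01 over all genes. In AIH against asymptomatic livers, which share the AIH libraries, 71 rose and 1 fell (19.1% and 10.7% of all genes), with a median of 2.33 beside -0.03. By list, 17 of 17 receptors and adaptors that carry an ITAM or signal through one rose against asymptomatic livers. So did 15 of 16 ITIM receptors, 7 of 12 kinases, 23 of 27 adaptors and effectors and 9 of 16 phosphatases and partners. Within one sex fewer passed, with 25 of 85 in males and 29 of 89 in females for AIH against control livers, all higher, where 3.63% and 5.59% of all genes were called in either direction. With sex as a term, 44 passed in AIH against asymptomatic livers, where 9.37% of all genes were called.

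Receptors and adaptors that carry an ITAM, or signal through partners that do, stand at the start of the pathway, and 17 of 17 rose in AIH against control livers, with a median log2 fold change of 2.97. Of these, Cd79a and Cd79b are also in the B cell marker list. The 3 with the smallest p, Selplg, Itgb2 and Itgam, carry no ITAM themselves. Selplg, the selectin ligand PSGL-1, averaged 31.9 ± 13.5 CPM in AIH and 4.06 ± 1.92 CPM in control livers, a log2 fold change of 2.97 ± 0.36 (edgeR adjusted p = 5.83e-05). Itgb2, the beta 2 integrin chain, averaged 95.7 ± 42.5 CPM in AIH and 13.3 ± 6.11 CPM in control livers (2.85 ± 0.35, edgeR adjusted p = 6.56e-05). Its partner Itgam averaged 13.7 ± 9.60 CPM in AIH and 0.894 ± 0.531 CPM in control livers (3.92 ± 0.61, edgeR adjusted p = 0.000440). Of the 16 ITIM receptors 13 rose and 3 did not pass, with a median of 2.28. Sirpa, the macrophage receptor for CD47, had a log2 fold change of 2.11 ± 0.30 (edgeR adjusted p = 0.000248), Cd72, a B cell and macrophage receptor, of 3.80 ± 0.55 (adjusted p = 0.000265), and Lair1, a collagen receptor, of 2.06 ± 0.35 (adjusted p = 0.000799).

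Of 12 tested kinases of the Syk, Src and Tec families and their Csk regulators, 7 rose, 1 fell and 4 did not pass in AIH against control livers, with a median log2 fold change of 1.38. Fyn, a Src kinase of many tissues, averaged 29.8 ± 6.90 CPM in AIH and 10.9 ± 1.93 CPM in control livers (1.45 ± 0.19, edgeR adjusted p = 0.000124). Matk, a Csk homologue, was low at 1.62 ± 0.273 CPM in AIH and 0.249 ± 0.256 CPM in control livers (2.66 ± 0.53, edgeR adjusted p = 0.00249). A gene this low outside AIH could pass the filter on low counts through AIH livers alone. Yes1, a widely expressed Src kinase, was the only pathway gene that fell by this test, with 25.97 ± 4.45 CPM in AIH and 40.9 ± 6.54 CPM in control livers (-0.65 ± 0.17, edgeR adjusted p = 0.0135). No pathway gene was called lower under library totals alone or within one sex.

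Of 27 other adaptors and effectors 18 rose and 9 did not pass, with a median log2 fold change of 1.58 for AIH against control livers. Prkcb, protein kinase C beta, had a log2 fold change of 2.75 ± 0.25 (edgeR adjusted p = 1.36e-05), Rac2, the blood cell Rac GTPase, of 3.41 ± 0.32 (adjusted p = 1.48e-05), and Lat2, a transmembrane adaptor, of 3.93 ± 0.37 (adjusted p = 1.49e-05). Plcg1 and Vav2, relatives of Plcg2 and Vav1 with wider expression, did not pass, with log2 fold changes of -0.27 ± 0.14 for Plcg1 and -0.24 ± 0.16 for Vav2. In the list of 16 other phosphatases 10 rose and 6 did not pass, with a median of 1.54. The 10 include Ptprcap, a partner of CD45 that is not itself a phosphatase. Ubash3b, which dephosphorylates Syk family kinases, had a log2 fold change of 1.94 ± 0.20 (edgeR adjusted p = 2.47e-05), Ptpn22, a phosphatase of lymphocyte Src kinases, of 3.63 ± 0.39 (adjusted p = 2.84e-05), and Ptpn7, a leukocyte phosphatase, of 3.65 ± 0.40 (adjusted p = 3.09e-05). Inppl1 and Ptpn11, the relatives of Inpp5d and Ptpn6 known as SHIP-2 and SHP-2, did not pass, with log2 fold changes of -0.29 ± 0.21 for Inppl1 and -0.36 ± 0.17 for Ptpn11. These 4 relatives were picked after their values were seen, and whether each differs from its partner was not tested.

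**Figure D5:**
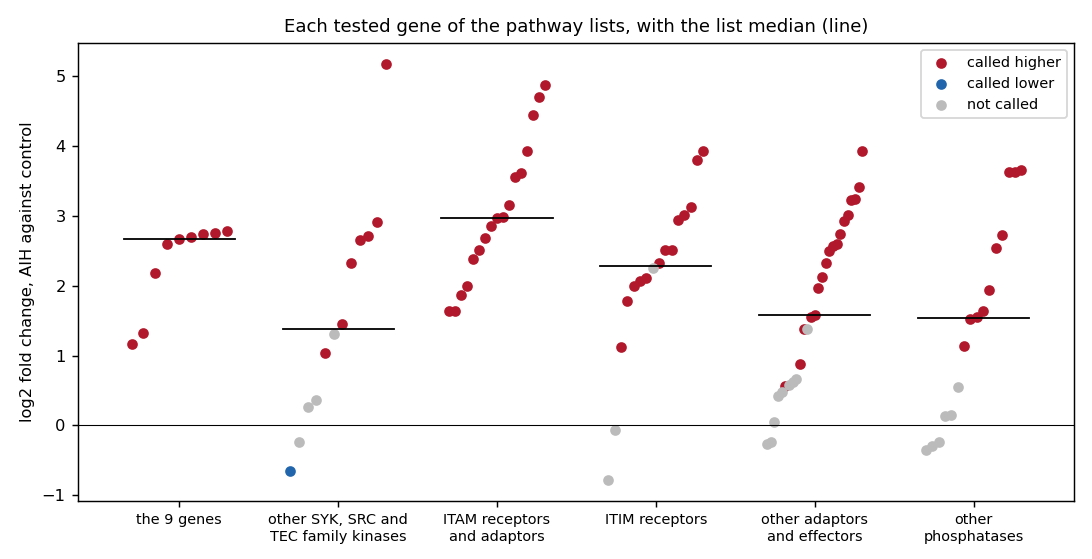
Log2 fold change for AIH against control livers (y axis) of every tested gene of the 9-gene set and of the 5 pathway lists, 1 point per gene in order of size, with the median of each list as a line. All points of the list of ITAM receptors, their partners and adaptors are called higher, and 1 kinase, Yes1, is called lower. The genes and lists were chosen with earlier results of these data known.

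In asymptomatic against control livers 0 of the 88 pathway genes were called by edgeR's quasi-likelihood test (0% of all genes were), 7 had an unadjusted p under 0.05 (10.5% of all genes), 0 were called by DESeq2 (0.746% of all genes) and 3 by limma-voom with quality weights (8.87% of all genes). The 3 genes, named after their values were seen, were lower in asymptomatic livers. Fcgr2b, the inhibitory IgG receptor, averaged 53.1 ± 8.39 CPM in asymptomatic and 75.4 ± 11.7 CPM in control livers (limma-voom adjusted p = 0.0367, edgeR adjusted p = 0.407). Cblb, a ubiquitin ligase that restrains receptor signalling, averaged 7.82 ± 3.12 and 13.3 ± 1.47 CPM in asymptomatic and control livers (limma-voom adjusted p = 0.0250, edgeR adjusted p = 0.423). Pik3ap1, the PI3-kinase adaptor BCAP, averaged 39.8 ± 6.80 and 57.1 ± 8.05 CPM in asymptomatic and control livers (limma-voom adjusted p = 0.0493, edgeR adjusted p = 0.428).

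Likeness to Syk was measured as the root mean square difference of log2 CPM, each gene centred on its own mean over the 14 libraries, where 0 is an identical profile. The 9 genes and gene models without a proper name (Gm, Rik or Ensembl ID) were left out of the ranking, here and for Inpp5d. The nearest of the other genes tested were Kif11 (0.20), a mitotic kinesin, and Akna (0.24), an AT-hook protein. Next came Laptm5 (0.26), a lysosomal protein of blood cells that is also in the pan-leukocyte list. Prkcb (0.28) and Apobec3 (0.28), a cytidine deaminase that restricts retroviruses, followed. The median over all genes was 1.42. Kif11 averaged 9.34, 1.22 and 1.34 CPM in AIH, asymptomatic and control livers. Within the set the nearest to Syk was Ptprc (0.28) and the farthest was Lyn (0.92). The genes nearest to Inpp5d were Elf4 (0.21), an ETS factor, Msn (0.23), which links actin to the membrane, Iqgap1 (0.23), a scaffold of the cytoskeleton, Cybb (0.23), a subunit of the phagocyte NADPH oxidase, and Rftn1 (0.23), a lipid raft protein, with a median of 1.21 over all genes. Its nearest partner in the set was Vav1 (0.32). Plcg2 and Ptprc were the closest pair of the 9 genes (0.23), and Lyn and Syk the farthest. All these distances share the 14 libraries and the gap between AIH and the other livers, and are a description.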

How the data were processed

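The authors deposited raw read counts per Ensembl gene, 1 file per library, with 51912 gene rows and 5 summary rows that name no gene and were left out of all totals. Unaligned reads made up 3.23% to 6.54% of a library in AIH, 4.93% to 9.27% in asymptomatic and 4.17% to 4.89% in control livers. Asymptomatic and control libraries did not overlap in this share. Reads with more than 1 alignment made up 28.8% to 37.0% of a library. Per the submitters' processing notes, the tools were HISAT2 2.1.0, HTSeq 0.9.0, cutadapt 1.12 and FastQC 0.11.5 (with no stated roles), R 4.0 and edgeR, and GRCh38 and GRCm38 are the builds. Not given in the sources used here are the release of the annotation, the read layout and the strand setting. Symbols, coordinates and exon lengths came from the GENCODE annotation on GRCm38, where 51719 gene IDs were found.

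The filter was filterByExpr, which kept 14638 genes. Counts were scaled by TMM and fitted with edgeR 4.0.16 (R 4.3.3) as 1 mean per group over the 14 libraries. Each contrast used the two-sided quasi-likelihood F-test with Benjamini-Hochberg adjustment over all genes tested and a threshold of 0.05. Standard errors were derived from the F statistic, with 95% intervals from the same fit. CPM are TMM-scaled, and log2 CPM used a prior count of 2. The procedure was also run on data simulated from control means with a limited set of changed genes, a simpler setting than these livers. No result here rests on that run.

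Replicate numbers follow accession order. The labels name no animal for a library, so p-values measure the spread between libraries. No 2 libraries of a group were alike within sampling noise (the lowest chi-square per gene between 2 of them was 13.8). The genes and lists were chosen with earlier results of these data known. Named pathway genes are the 3 with the smallest p of each list in AIH against control livers and those called lower there or called between asymptomatic and control livers, of which 1 gene is not reported here. Promoter sequences are from RefSeq on GRCm38.p6, where 8 of the 9 genes matched. Protein sequences were not used here. The other settings were RLE factors, library totals alone, no filter on low counts, DESeq2 1.42.0, limma-voom with quality weights (limma 3.58.1), a fit of only 2 groups at a time, males only, sex as a term, each library left out in turn and, added after the data were seen, females only.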

Additional observations from a re-analysis of the deposited data

Results flagged for a closer look

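Among the 9 genes in 3 groups, 27 sets of values were checked for a library far from the others of its group, and 2 were found, where chance gives about 1 in 20. Both were control 3. Fgr stood at 7.35 CPM in control 3 and at 2.51 to 3.22 CPM in the other 3 controls, a gap of 0.854 of the group's range and above Dixon's critical value for 4 libraries. Ptprc stood at 29.5 CPM in control 3 and at 12.9 to 15.5 CPM in the other 3 controls, a gap of 0.845 of the range, also above that value. Control 3 also had the highest sums of the controls for the pan-leukocyte (109.9 CPM), monocyte and macrophage (647 CPM) and Kupffer cell markers (655 CPM), and their part in these values was not tested. Without control 3 the log2 fold change for asymptomatic against control livers was 0.45 for Fgr and 0.25 for Ptprc, against -0.05 and -0.09 with it, and neither was called.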

How the results depend on the processing

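No paired analysis was possible because the labels link no library of one group to a library of another. The controls were littermates, and litter was not part of the fit. For AIH against control and AIH against asymptomatic livers the log2 fold changes of the 9 genes were positive under every setting run, and the lowest were 0.80 and 0.37, both of Lyn in males. The genes were chosen with rises in these same livers in view, so their sign is a description and no independent check. For asymptomatic against control livers 0 of the 9 were called under any setting run. Library totals alone shifted the median over all tested genes, on the log2 scale, to 0.14 for AIH against control and 0.17 for AIH against asymptomatic livers, less than the change of any of the 9 genes. The pathway genes called in AIH against control livers numbered 66, and 25 in males, 29 in females and 61 to 68 with 1 library left out. For AIH against asymptomatic livers they numbered 72, and 44 with sex as a term, 32 in males and 66 to 73 with 1 library left out. For asymptomatic against control livers they numbered 0, and 3 by limma-voom with quality weights. The cause of these differences was not tested, beyond the smaller number of libraries within a sex.

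The small log2 fold changes for asymptomatic against control livers changed sign for 6 of the 9 genes, none of them called under any setting. Syk was at 0.012 without the filter, 0.18 with sex as a term, 0.26 in males and -0.16 to 0.17 with 1 library left out. Fgr was at 0.20 by limma-voom, 0.64 with sex as a term, 0.56 in males and -0.21 to 0.45 with 1 library left out. Plcg2 was at 0.31 in males and -0.25 to 0.17 with 1 library left out. Vav1 was at -0.024 under library totals alone and -0.076 to 0.29 with 1 library left out. Inpp5d was at 0.0098 with sex as a term and 0.081 in males. Ptprc was at 0.11 with sex as a term, 0.30 in males and -0.20 to 0.25 with 1 library left out. The cause was not tested. Counting depth limits Btk most, with 20 to 399 reads per library.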
